A study of Mus musculus with 6 samples.

Results

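Cells that divide switch on a shared set of genes for mitosis, and 40 of these genes are described here in mouse macrophages. They were picked by gene name out of 27240 genes in the deposited table, with earlier results of these data known. All 40 were found there, and all 40 were among the 16239 genes with enough counts to be tested. The set holds the kinases and cyclins that start mitosis, the proliferation markers Mki67 and Top2a, and the spindle checkpoint. It also holds the Aurora kinases with the chromosomal passenger complex, kinetochore proteins, spindle motors and the mitotic ubiquitin system. The proteins of the midzone and of cytokinesis complete it.

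The libraries came from primary peritoneal macrophages of mice, cells taken from the abdominal cavity, as poly(A) RNA read as paired ends. The KO group had 3 libraries and the WT group had 3 libraries, and all 6 were from cells given oxLDL, oxidised low-density lipoprotein, a particle that macrophages take up and that turns them into lipid-filled foam cells. The labels name the genotype only as KO or WT, while the series title names DCLK1, a kinase that binds microtubules; neither source gives how the knockout was made, the strain and age of the mice, or the dose and time of oxLDL. No group without oxLDL was analysed here, so every value below compares KO and WT cells that both received it.

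A dividing cell makes the mitotic kinase Cdk1 with its cyclins, condenses its chromosomes, attaches them by their kinetochores to a spindle of microtubules, and holds anaphase back until the spindle checkpoint is satisfied. The anaphase-promoting complex with Cdc20 and Ube2c then marks cyclin B and securin for destruction, and a midzone of microtubules guides the furrow that splits the cell. Many of these genes are read mainly in G2 and mitosis, through a promoter element called CHR (cell cycle genes homology region) that binds the MuvB complex and CCAAT boxes that bind NF-Y; peritoneal macrophages are mostly resting, and a minority can divide in the tissue.

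The promoters of the members shared these elements. RefSeq promoter windows, running 250 bases before to 50 bases after the transcription start in build GRCm38.p6, were matched by symbol for 32 of the 40 members. The 8 members with no window in the table were Aurkb, Ccna2, Cdc25c, Foxm1, Incenp, Kif20a, Pbk and Tpx2. The 150 bases just before the start are printed for 6 genes, chosen to span the roles: the proliferation markers Mki67 and Top2a, the mitotic exit pair Ube2c and Cdc20, the entry kinase Cdk1 and the spindle motor Kif11. Each is given 5′ to 3′ on the strand of its gene, and capitals mark the CHR (TTTGAA, or TTCAAA on the other strand) and the CCAAT box (CCAAT, or ATTGG on the other strand). The stretches are Mki67 at chr7:135716380-135716529 (minus strand), Top2a at chr11:99024190-99024339 (minus strand), Ube2c at chr2:164769779-164769928 (plus strand), Cdc20 at chr4:118437344-118437493 (minus strand), Cdk1 at chr10:69352913-69353062 (minus strand) and Kif11 at chr19:37376232-37376381 (plus strand).
Mki67: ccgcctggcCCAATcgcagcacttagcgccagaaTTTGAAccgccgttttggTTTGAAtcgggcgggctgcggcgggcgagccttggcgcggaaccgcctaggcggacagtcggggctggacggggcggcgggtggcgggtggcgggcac
Top2a: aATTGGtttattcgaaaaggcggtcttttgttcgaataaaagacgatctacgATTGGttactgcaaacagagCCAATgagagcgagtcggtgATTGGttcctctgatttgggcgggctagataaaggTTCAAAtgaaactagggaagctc
Ube2c: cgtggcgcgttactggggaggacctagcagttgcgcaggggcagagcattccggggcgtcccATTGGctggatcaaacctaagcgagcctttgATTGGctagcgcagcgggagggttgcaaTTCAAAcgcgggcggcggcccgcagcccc
Cdc20: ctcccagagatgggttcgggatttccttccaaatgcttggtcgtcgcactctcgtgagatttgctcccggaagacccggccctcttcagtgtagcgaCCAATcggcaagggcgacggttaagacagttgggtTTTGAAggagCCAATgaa
Cdk1: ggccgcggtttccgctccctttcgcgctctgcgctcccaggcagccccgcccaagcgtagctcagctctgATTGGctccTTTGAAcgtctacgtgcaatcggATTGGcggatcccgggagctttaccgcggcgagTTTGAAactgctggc
Kif11: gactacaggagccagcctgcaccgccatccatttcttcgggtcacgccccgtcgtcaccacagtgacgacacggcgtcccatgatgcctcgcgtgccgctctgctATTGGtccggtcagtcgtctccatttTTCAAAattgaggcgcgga

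In these 6 stretches a CCAAT box lay upstream of a CHR, and in all but Mki67 a CHR stood close to the start, first base at -23 in Top2a, -29 in Ube2c, -18 in Cdc20, -15 in Cdk1 and -19 in Kif11, where -1 is the base before the start. Over whole windows and both strands, the CHR was present in 24 of the 32 members (75.0%), against 20.2% of all 27025 genes in the promoter table. In 22 of those 24 members a CHR began within 50 bases of the start. A CCAAT box was present in 75.0% of the 32 members and in 41.1% of all genes, and both elements together in 65.6% and 7.97%. These are shares of genes, and a gene counted if any of its windows matched, as 2 members had more than 1 window. The CHR variant TTTAAA, which reads the same on both strands, was in 28.1% of the members and 14.9% of all. The E2F site, searched as TTCCCGC or TTGGCGC and known from genes of DNA replication, was in 12.5% of the members and 7.79% of all, while 58.1% of 31 S phase genes held it and 12.9% of them held the CHR. Matches of different motifs may share bases, which occurred in 4 pairs of matches among the members. Mad2l1, Melk, Nuf2 and Nusap1 held none of the 4 motifs in the window. A match describes letters in the window and says nothing of which factor was bound in these cells.

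**Figure D1:**
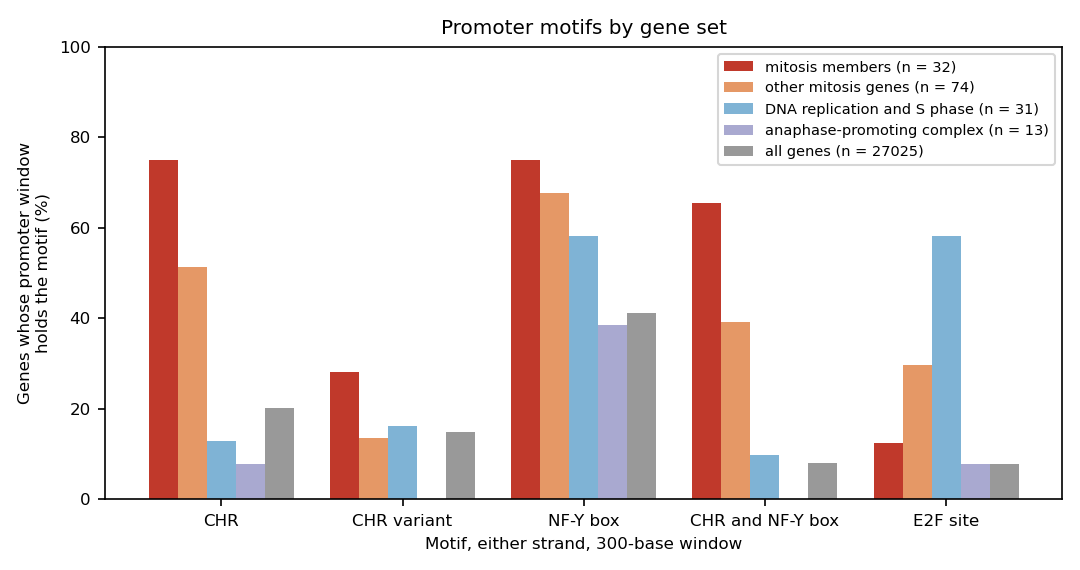
Percent of genes with a promoter window (300 bases) that holds each motif on either strand (bars). The sets are the members with a window, other mitosis genes, S phase genes, genes of the anaphase-promoting complex and all genes in the table. NF-Y box stands for the CCAAT box. The members show the CHR at 75.0% against 20.2% of all genes, while the E2F site is most frequent in the S phase genes at 58.1%.

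Facts of the libraries bear on every value. They held 68053008 to 79090732 counts each, over 19628 to 20137 genes with a count, so that 1 count was worth 0.0127 to 0.0147 CPM (counts per 1000000 counts of the scaled library). Dclk1 was still counted in the libraries labelled KO, with 415, 431 and 377 counts, against 494, 498 and 584 in WT (log2 fold change -0.37, SE 0.116; edgeR adjusted p = 0.332); the count runs over the whole gene, and a deletion of part of it need not remove it, so this checks the labels only weakly. WT library 1 stood apart on the first principal component of all genes, which held 25.9% of the variance, at 60.7, where the other WT libraries were at 16.2 and 5.94 and the KO libraries at -10.9, -34.6 and -37.3. Macrophage markers fitted the labelled cell type: the F4/80 gene Adgre1 averaged 1016 CPM in KO and 1057 CPM in WT, and the lysosomal Cd68 averaged 1993 CPM in KO and 1994 CPM in WT, while Gata6, the factor of large peritoneal macrophages, was low at 2.01 CPM in KO and 2.67 CPM in WT. Nothing in the labels says that the libraries of a group came from separate mice or cultures, so p-values measure the spread between these libraries, which may be technical.

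The mitosis genes were read at a low level. In a bulk sample, fewer cells of a type and less RNA per cell cannot be told apart. On the per-length scale FPKM, the 40 members had a median level of 0.641 over the 6 libraries, against 2.53 for all tested genes, and the median member stood at percentile 30.4 of tested genes. Incenp, the scaffold of the passenger complex, was the most abundant at a mean of 6.3 FPKM. It was followed by the checkpoint gene Bub1b at 5.39 FPKM and the proliferation marker Mki67 at 4.07 FPKM. In order below them came Tpx2 at 1.73, Top2a at 1.55, Ccnb2 and Cdc20 at 1.26 each, Ccna2 at 1.13, Plk1 at 1.12 and Ccnb1 at 1.1 FPKM. The other 30 members lay under 1 FPKM, down to the Cdk1-activating phosphatase Cdc25c at 0.072 FPKM. Member counts ran from 4 to 3691 per library, and the spread within a group had a median coefficient of variation of 14.7%.

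Most mitosis genes had lower mean levels in KO than in WT libraries, by modest amounts, and no single gene passed the threshold in edgeR. Summed over the 40 members, the level was 216, 213 and 218 CPM in the KO libraries, against 281, 249.8 and 253 CPM in the WT libraries. All 3 KO sums lay below all 3 WT sums, and the KO sums differed little among themselves while WT library 1 was the highest of the 6. The mean was 216 ± 2.58 CPM in KO and 261 ± 17.4 CPM in WT (SD, n = 3 each), a ratio of 0.826. The 4 members of highest CPM, Mki67, Incenp, Bub1b and Top2a, held 49.2% of the members' total; without them the sum was 109 ± 4.16 CPM in KO and 133 ± 9.55 CPM in WT, a ratio of 0.82. Leaving out WT library 1 gave a ratio of 0.859 over all members.

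Gene by gene, 0 of the 40 members passed edgeR's quasi-likelihood test at an adjusted p under 0.05, in a comparison that called 11 of 16239 genes, 7 lower in KO (0.0431%) and 4 higher in KO (0.0246%), 0.0677% in all. At an unadjusted p under 0.05 there were 10 members, all lower in KO, Bub1b, Top2a, Birc5, Ube2c, Mki67, Cdca3, Kif23, Kif4, Tpx2 and Mad2l1; of all tested genes 10.4% reached that level and 5.71% were lower in KO. Without WT library 1 this count was 3, while 8.94% of all genes reached that level and 4.55% were lower in KO. DESeq2 called 1 member, Bub1b, among 457 genes (3.77% of those it gave an adjusted p), and limma on FPKM called none of the 10 members it tested, in a comparison that called 0.0765% of genes. The fitted log2 fold change was below 0 for 37 of the 40 members, against 50.5% of all tested genes, with a median of -0.29 over the members and -0.00187 over all. The exceptions, all within error of 0, were the microtubule-binding Nusap1 at 0.12, the kinase Melk at 0.11 and the centromeric histone Cenpa at 0.07. All 3 KO values lay below all 3 WT values for 13 members, and for no member were all KO values above; of all tested genes 8.89% had KO wholly below WT and 8.68% wholly above. The 95% interval lay wholly below 0 for 10 members and included 0 for 30. For 11 it reached below -1, so that for those the fit allowed a fold under 0.5. It reached above 1 for 2 members, Cdc25c (up to 1.46) and Melk (up to 1.03).

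**Figure D2:**
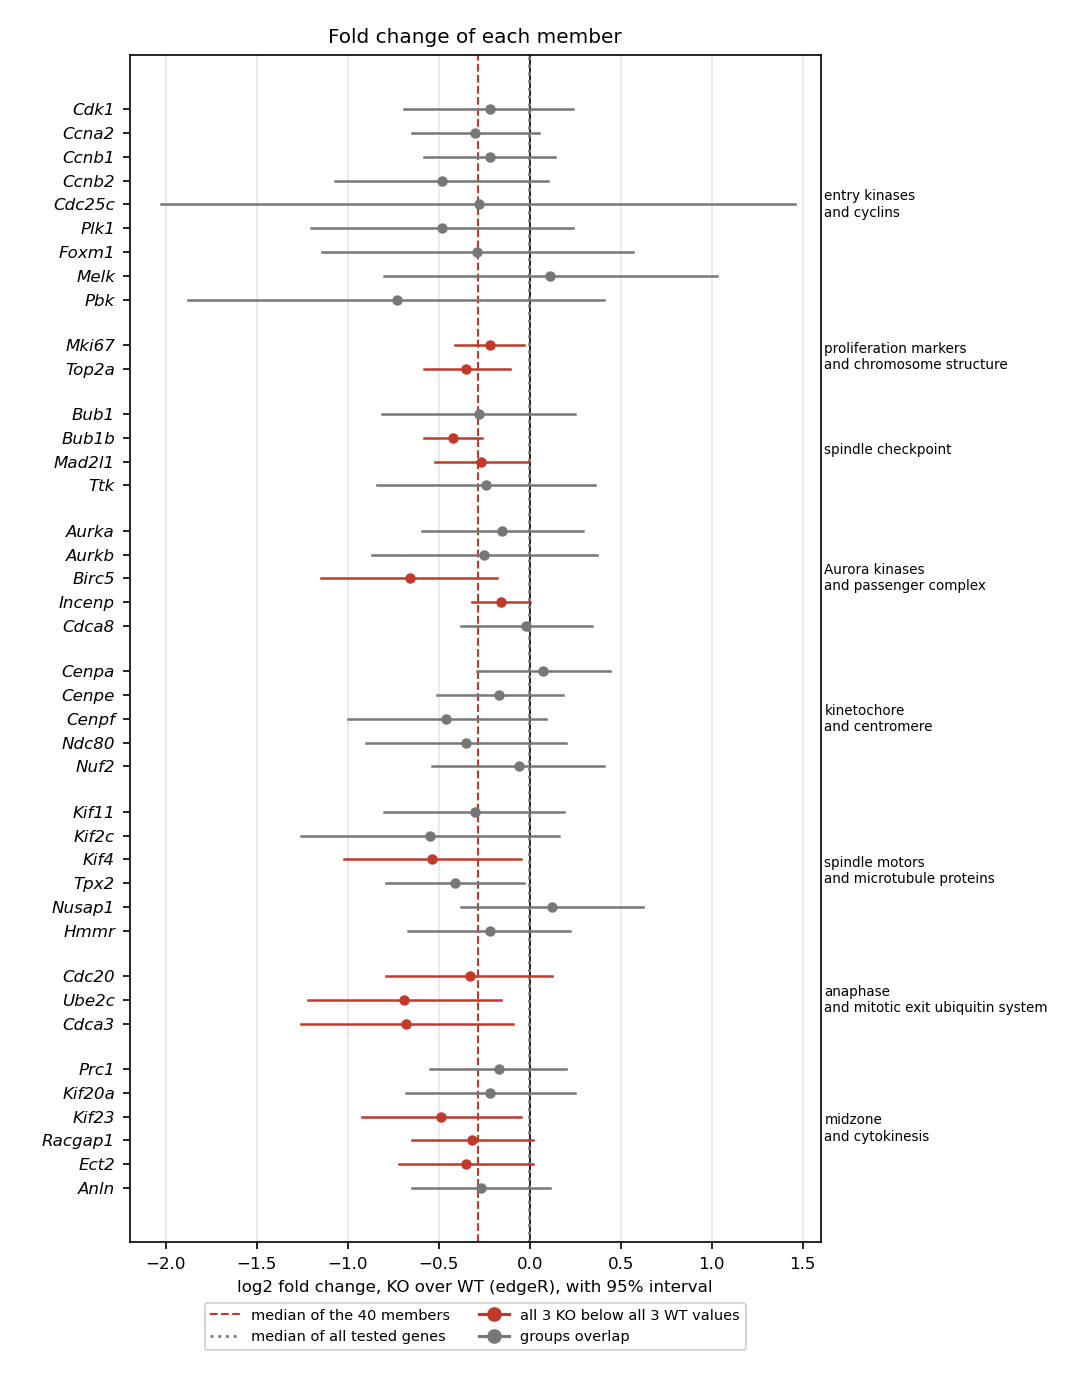
Log2 fold change, KO over WT, of each of the 40 members by role, with its 95% interval from edgeR; red marks members whose 3 KO values all lay below the 3 WT values. 37 points lie left of 0, their median is -0.29 and most intervals cross 0.

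Among the spindle checkpoint genes, Bub1b stood out. This kinase-like protein, called BubR1, is part of the complex that holds Cdc20 inactive until all kinetochores are attached. Bub1b (ENSMUSG00000040084, chromosome 2, 118598211 to 118641591, plus strand) had 21.9, 21.9 and 22.1 CPM in the KO libraries, against 31.0, 27.4 and 30.0 CPM in the WT libraries. The KO values were nearly equal to each other and far below the lowest WT value. Its fold was 0.746 (95% interval 0.667 to 0.833; log2 -0.42, SE 0.0685), with an edgeR adjusted p of 0.0833 and an unadjusted p of 0.000364, the smallest of the members. DESeq2 gave it an adjusted p of 0.00019, and leaving out 1 library at a time gave edgeR adjusted p-values of 0.095 to 0.269. Mad2l1, whose protein joins the same complex, had 6.23, 6.73 and 6.49 CPM in KO, against 8.19, 8.03 and 7.18 CPM in WT (log2 fold change -0.27, SE 0.11; edgeR adjusted p = 0.454). Its groups did not overlap either. The kinases Bub1 and Ttk, which act at the kinetochore, had overlapping groups, at 2.55 ± 0.688 CPM in KO and 3.1 ± 0.211 CPM in WT for Bub1, and 1.41 ± 0.355 CPM in KO and 1.67 ± 0.133 CPM in WT for Ttk (SD, n = 3 each). Summed, the 4 checkpoint genes were at 77.1% of the WT level.

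The proliferation markers followed the same order. Mki67 (ENSMUSG00000031004), whose protein Ki-67 coats mitotic chromosomes and is the usual stain for cycling cells, had 40.1, 44.8 and 41.6 CPM in KO, against 54.3, 46.4 and 46.5 CPM in WT. The KO values all lay below the WT values, but KO library 2 came close to WT libraries 2 and 3. Its log2 fold change was -0.22 (SE 0.0806; edgeR adjusted p = 0.401), and WT library 1 was its highest. Top2a (ENSMUSG00000020914), the topoisomerase that untangles sister chromatids, had 14.2, 14.2 and 12.7 CPM in KO, against 19.4, 16 and 16.9 CPM in WT. Its groups were clear of each other, with a log2 fold change of -0.35 (SE 0.101; edgeR adjusted p = 0.273, the second smallest of the members). A snoRNA gene lies within an exon of Top2a.

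**Figure D3:**
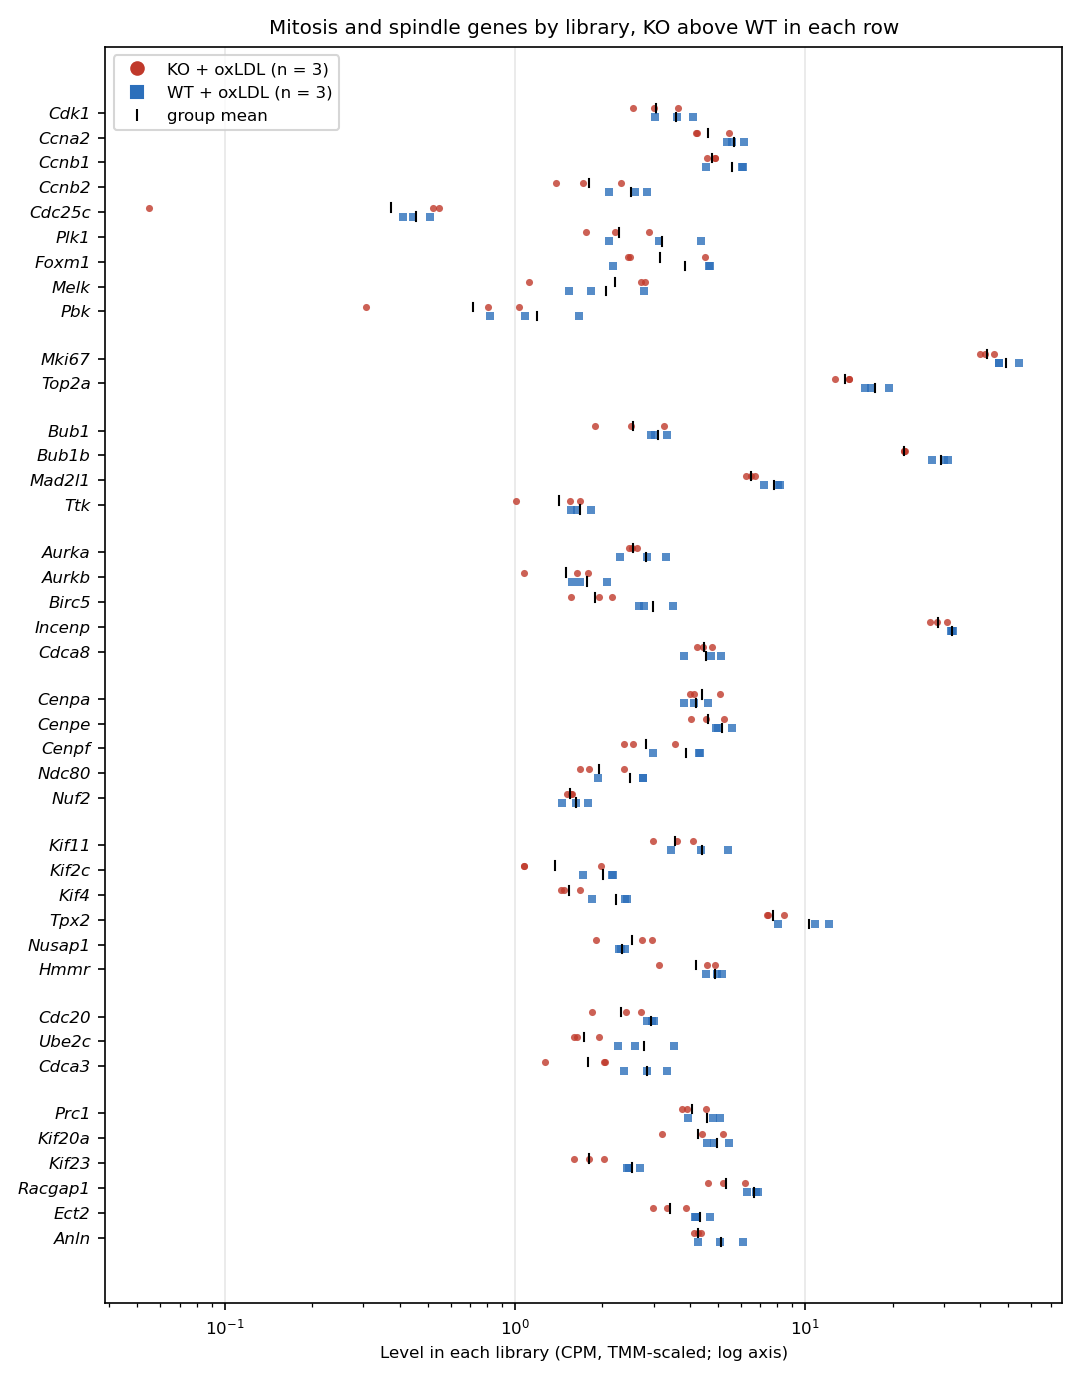
Level of each of the 40 members in each of the 6 libraries, in CPM on a log axis, with KO (red circles) above WT (blue squares) in each row; points are libraries and short black bars the group means. Bub1b shows the clearest separation, with KO libraries at 21.9 to 22.1 CPM and WT libraries at 27.4 to 31.0 CPM.

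Of the 8 roles, the mitotic ubiquitin system, 3 genes of low level, had the lowest summed ratio of KO to WT. All 3 of its members had KO values wholly below WT values, as 8.89% of all tested genes did, and edgeR and DESeq2 called 0 of the 3. Ube2c (ENSMUSG00000001403), the ubiquitin-conjugating enzyme of the anaphase-promoting complex, had 1.95, 1.6 and 1.64 CPM in KO, against 3.52, 2.26 and 2.58 CPM in WT (log2 fold change -0.69, SE 0.227; edgeR adjusted p = 0.351). Cdca3 (ENSMUSG00000023505), a protein that helps degrade the mitosis inhibitor Wee1, had 2.04, 2.02 and 1.27 CPM in KO, against 2.38, 3.33 and 2.84 CPM in WT (log2 fold change -0.68, SE 0.25; edgeR adjusted p = 0.401). Cdc20, the activator that brings substrates to the complex, had 1.84, 2.72 and 2.41 CPM in KO, against 2.96, 3.0 and 2.84 CPM in WT (log2 fold change -0.33, SE 0.195; edgeR adjusted p = 0.618). The gap for Cdc20 was small, since KO library 2 nearly reached WT library 3. Summed, the 3 genes were at 5.84, 6.34 and 5.32 CPM in KO and 8.85, 8.59 and 8.25 CPM in WT, 68.1% of the WT level. Of the 50-base sequences of Ube2c, 16% also occurred in other genes, mainly the overlapping Tnnc2, and 10.6% of those of Cdc20, so part of their counts could belong to others. A list of 14 other genes of the anaphase-promoting complex, its subunits with the partners Fzr1 and Ube2s, had 10 fitted values below 0. The median log2 fold change of this list was -0.03, and edgeR and DESeq2 called 0 of it. At an unadjusted p under 0.05 there were 0 of the 14, against 10.4% of all tested genes. The list summed to 603 ± 7.58 CPM in KO and 608 ± 9.34 CPM in WT (SD, n = 3 each).

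In the passenger complex, which corrects faulty attachments and then moves to the midzone, the members differed in the size of the difference. Birc5 (ENSMUSG00000017716), which encodes survivin, had 1.95, 2.15 and 1.56 CPM in KO, against 3.5, 2.68 and 2.78 CPM in WT (log2 fold change -0.66, SE 0.207; edgeR adjusted p = 0.32). Incenp had 30.9, 27.0 and 28.4 CPM in KO, against 32.4, 31.7 and 32.1 CPM in WT (log2 fold change -0.16, SE 0.0682; edgeR adjusted p = 0.483). Both sets of libraries were apart, by a wide gap for Birc5 and a narrow one for Incenp. Cdca8, or borealin, had a log2 fold change of -0.02 and overlapping groups, at 4.49 ± 0.276 CPM in KO and 4.56 ± 0.659 CPM in WT. The kinases Aurkb, of this complex, and Aurka, of the spindle poles, overlapped too, with log2 fold changes of -0.25 and -0.15. Aurkb averaged 1.49 ± 0.373 CPM in KO and 1.77 ± 0.272 CPM in WT (SD, n = 3 each).

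Of the spindle motors and microtubule proteins, Kif4 and Tpx2 had the firmest differences. Kif4 (ENSMUSG00000034311), a chromosome-borne kinesin, had 1.48, 1.68 and 1.44 CPM in KO, against 2.43, 1.84 and 2.4 CPM in WT (log2 fold change -0.54, SE 0.208; edgeR adjusted p = 0.424). Tpx2 (ENSMUSG00000027469), which activates Aurora A and seeds spindle microtubules, had 7.42, 7.41 and 8.47 CPM in KO, against 12.1, 8.07 and 10.8 CPM in WT (log2 fold change -0.41, SE 0.162; edgeR adjusted p = 0.433). For Tpx2 WT library 2 lay among the KO values, whereas the groups of Kif4 did not overlap. The kinesin Kif2c, which depolymerises microtubules, had a log2 fold change of -0.55 with 1.37 ± 0.528 CPM in KO and 2.01 ± 0.263 CPM in WT. Kif11, which pushes the poles apart, averaged 3.57 ± 0.561 CPM in KO and 4.41 ± 0.978 CPM in WT, and Hmmr, a spindle-pole protein, 4.2 ± 0.927 CPM in KO and 4.9 ± 0.322 CPM in WT. Nusap1 differed, at 1.9, 2.73 and 2.97 CPM in KO and 2.32, 2.29 and 2.39 CPM in WT, its KO libraries on both sides of the WT ones. Of the 50-base sequences of Kif4, 14.5% also lay in other genes, chiefly the overlapping Pdzd11.

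The genes of the midzone and cytokinesis were all fitted below 0, and 3 of 6 had KO values wholly below WT values, as 8.89% of all tested genes did. Kif23 (ENSMUSG00000032254), the kinesin of the centralspindlin complex, had 1.59, 2.02 and 1.8 CPM in KO, against 2.43, 2.47 and 2.7 CPM in WT (log2 fold change -0.49, SE 0.185; edgeR adjusted p = 0.412). Its partner Racgap1 had 5.21, 4.61 and 6.21 CPM in KO, against 6.88, 6.29 and 6.77 CPM in WT, and Ect2, the exchange factor that they bring to the furrow, had 2.99, 3.35 and 3.88 CPM in KO, against 4.19, 4.69 and 4.16 CPM in WT. The edgeR adjusted p-values were 0.51 for Racgap1 and 0.5 for Ect2, with log2 fold changes of -0.32 and -0.35. Kif23, Racgap1 and Ect2 were the 3 of the 6 listed genes whose groups did not overlap, and they were not a list of their own. The microtubule bundler Prc1, the kinesin Kif20a and the ring protein Anln had overlapping groups and log2 fold changes of -0.17, -0.22 and -0.27. Kif20a shares 25.2% of its 50-base sequences with other genes, among them Cdc23 on the opposite strand, and Prc1 shares 9.77%.

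The kinases and cyclins that start mitosis, 9 members, showed no gene with separate groups. Cdk1 had 2.55, 3.01 and 3.65 CPM in KO, against 3.6, 4.1 and 3.04 CPM in WT (log2 fold change -0.22, SE 0.198; edgeR adjusted p = 0.766). Its cyclin partners were similar: Ccnb1 averaged 4.78 ± 0.171 CPM in KO and 5.57 ± 0.884 CPM in WT, Ccna2 4.62 ± 0.706 CPM in KO and 5.7 ± 0.385 CPM in WT, and Ccnb2 1.8 ± 0.474 CPM in KO and 2.51 ± 0.383 CPM in WT (SD, n = 3 each). The polo kinase Plk1 was at 2.9, 1.76 and 2.21 CPM in KO and at 4.37, 3.13 and 2.11 CPM in WT. Foxm1, the transcription factor that drives many of the other members, had 4.52, 2.49 and 2.45 CPM in KO, against 4.66, 4.71 and 2.17 CPM in WT, with 1 KO library high and 1 WT library low. The kinase Pbk had the lowest fitted value of all members, -0.73, with a wide interval from -1.88 to 0.41, and Cdc25c rested on 4 to 40 counts a library. Melk had 1.12, 2.8 and 2.72 CPM in KO, against 2.78, 1.83 and 1.54 CPM in WT. Of the 50-base sequences of Ccnb1, 23.4% also occurred in other genes, among them the pseudogene Ccnb1-ps. That share was 11.9% for Cdc25c, 11.4% for Ccna2 and 10.4% for Plk1.

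The kinetochore and centromere members summed to 88.4% of the WT level, near the 88.5% of the Aurora kinases and passenger complex. Cenpf, a large kinetochore protein that builds up in G2, had 2.54, 2.37 and 3.57 CPM in KO, against 4.34, 2.99 and 4.32 CPM in WT (log2 fold change -0.46, SE 0.233; edgeR adjusted p = 0.554). Ndc80 and Nuf2, partners in the complex that grips microtubules, had log2 fold changes of -0.35 and -0.06. The kinesin Cenpe averaged 4.61 ± 0.605 CPM in KO and 5.17 ± 0.381 CPM in WT, and Cenpa 4.41 ± 0.578 CPM in KO and 4.19 ± 0.405 CPM in WT (SD, n = 3 each). Groups overlapped for all 5.

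**Figure D4:**
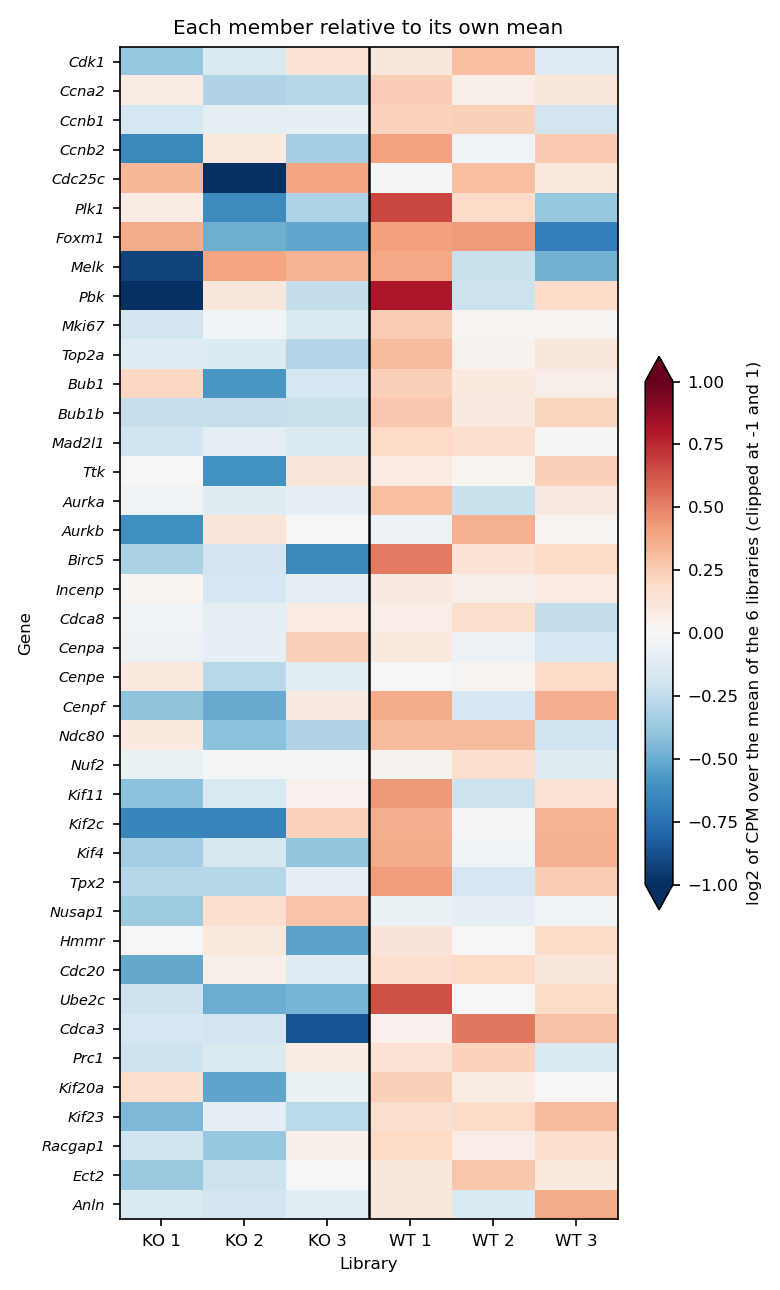
Log2 level of each member in each library relative to the mean of the 6 libraries, as colours clipped at -1 and 1, with KO columns left of WT columns. WT library 1 is above the mean for 37 of 40 members and KO library 2 for 7.

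By library, WT library 1 was the highest of the 6 for 20 members, WT library 2 for 11 and WT library 3 for 5, while KO libraries 1, 2 and 3 were the highest for 0, 1 and 3. The lowest value was in KO library 2 for 16 members, KO library 1 for 13 and KO library 3 for 5, and in WT libraries 1, 2 and 3 for 0, 1 and 5. Relative to the WT mean, the median member was at -0.30, -0.32 and -0.21 on the log2 scale in KO libraries 1, 2 and 3. Without WT library 1, 36 of 40 members were still fitted below 0, and their median log2 fold change over all 40 was -0.25. Members without overlapping exons and with under 5% of shared 50-base sequences, 27 in all, had 25 fitted below 0, a median of -0.28 and a summed ratio of 0.827. The 24 members with a CHR had a median log2 fold change of -0.34 and 23 fitted below 0, and the 8 with a window but no CHR had a median of -0.20 and 6 below 0; this split was described after the values were known and has no test.

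Other mitosis genes, 91 chosen by role, lay closer to 0. Of these 61 were fitted below 0, the median log2 fold change was -0.15, and 0 were called by edgeR or DESeq2; 5 were lower and 1 higher at an unadjusted p under 0.05, where 5.71% of all tested genes were lower. KO lay wholly below WT for 12 and wholly above for 6, against 8.89% and 8.68% of all tested genes. The 18 entry regulators and partners came nearest the members, with 16 below 0, a median of -0.26 and sums of 66.8 ± 1.76 CPM in KO and 75.4 ± 1.61 CPM in WT (SD, n = 3 each). Among them Wee1, the kinase that restrains Cdk1, had 10.1, 9.94 and 9.69 CPM in KO, against 13.1, 12 and 10.3 CPM in WT (edgeR adjusted p = 0.495). The 23 spindle genes had 18 below 0 and a median of -0.21, and among them the spindle protein Ckap2l had 1.67, 1.93 and 2.02 CPM in KO, against 2.71, 2.72 and 2.66 CPM in WT (edgeR adjusted p = 0.351). The sum over the spindle genes was closer, at 354 ± 10.5 CPM in KO and 363 ± 8.73 CPM in WT, and of it Numa1, a nuclear protein of resting cells too, made up 156 CPM in KO and 154 CPM in WT. The 33 kinetochore genes had 18 below 0 and a median of -0.06, and the 17 genes of condensin, cohesin and separase had 9 below 0. In that last list, separase Espl1 averaged 2.66 ± 0.223 CPM in KO and 3.52 ± 0.288 CPM in WT, and the cohesin subunit Stag2, used in all cells, 176 ± 1.27 CPM in KO and 158 ± 6.07 CPM in WT.

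For DNA replication genes the sums of KO and WT libraries overlapped, while single genes lay on both sides. The 40 S phase genes summed to 543 ± 6.67 CPM in KO and 542 ± 15.5 CPM in WT (SD, n = 3 each), with 26 fitted below 0 and -0.13 as the median log2 fold change. edgeR called 0 of them. DESeq2 called 1, Cdt1, against 3.77% of all genes to which it gave an adjusted p. At an unadjusted p under 0.05, 5 were lower and 3 higher, where 10.4% of all tested genes reached that level and 5.71% were lower. KO lay wholly below WT for 9 of the 40 and wholly above for 3, against 8.89% and 8.68% of all tested genes. Cdt1, which loads the replicative helicase, had 18.6, 16.3 and 18.2 CPM in KO, against 12.4, 13.3 and 12.6 CPM in WT (log2 fold change 0.47, SE 0.0847; edgeR adjusted p = 0.105, DESeq2 adjusted p = 0.000936). Uhrf1, which keeps DNA methylation through replication, had the opposite order, with 4.54, 6.63 and 5.75 CPM in KO, against 9.21, 8.44 and 6.65 CPM in WT (edgeR adjusted p = 0.379). The clamp Pcna was far more abundant than any member, at 71.1 FPKM in KO and 68.3 FPKM in WT, and made up 189 CPM of the sum in KO and 183 CPM in WT.

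**Figure D5:**
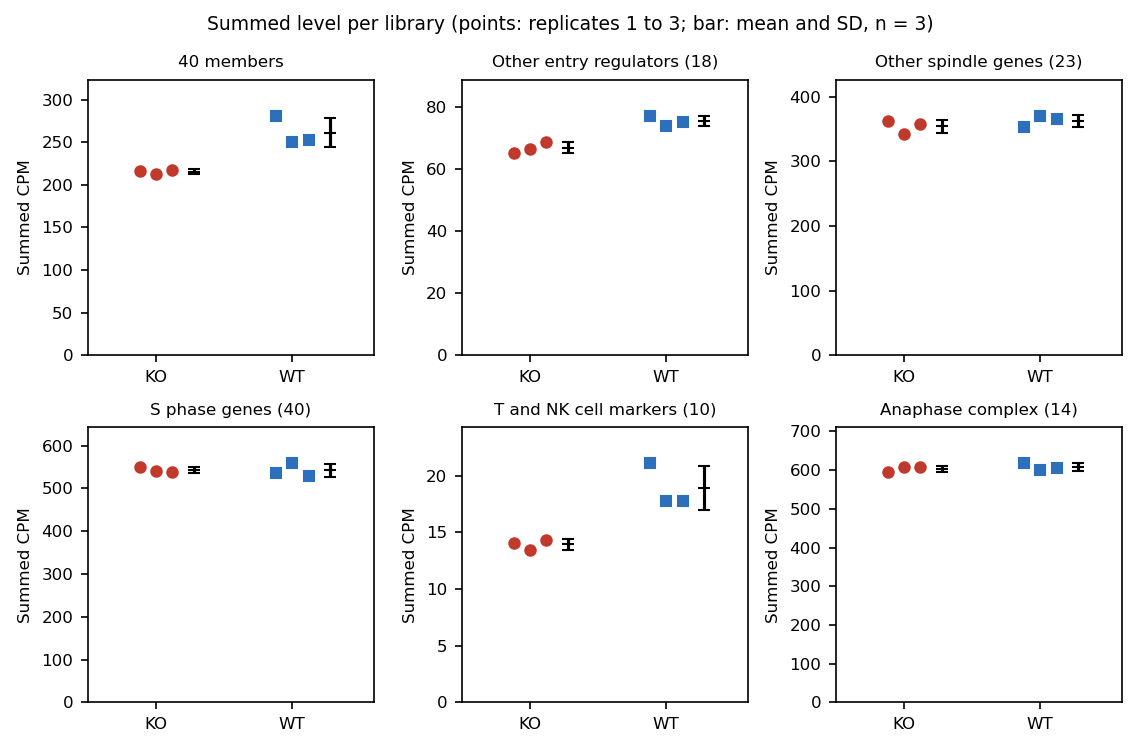
Summed CPM per library for the 40 members, other entry regulators, other spindle genes, S phase genes, T and NK cell markers and the anaphase-promoting complex, with KO left of WT and the mean and SD beside the points. The members' sums are 213 to 218 CPM in KO and 249.8 to 281 CPM in WT, while the S phase sums of KO and WT libraries overlap.

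Several lists of markers of other cells also had lower sums in KO than in WT libraries. The T and NK cell list held 10 genes, of which 8 were tested and 7 fitted below 0. Its sums were 13.4 to 14.3 CPM in KO and 17.8 to 21.1 CPM in WT. edgeR called 0, and 4 were lower at an unadjusted p under 0.05, where 5.71% of all tested genes were lower. DESeq2 called Cd3g and Trbc2 lower, against 3.77% of all genes to which it gave an adjusted p. In the same list Cd8a had the opposite order, at 3.37 CPM in KO and 3.06 CPM in WT. Trac and Cd3e had log2 fold changes of -0.16 and -0.21. Ncr1 was at 0 in 5 of the 6 libraries. Dendritic cell genes summed to 24.2 to 25.6 CPM in KO and 30.4 to 36.7 CPM in WT, with 5 of 6 tested below 0. Most of that sum was Ccr7, at 9.34 CPM in KO and 11.7 CPM in WT, and Fscn1, at 11.8 CPM in KO and 16.9 CPM in WT. Flt3 and Zbtb46 of the same list had log2 fold changes of 0.03 and -0.04. Mast cell genes summed to 3.02 to 4.25 CPM in KO and 4.98 to 6.19 CPM in WT, with 5 of 5 below 0. Fibroblast and mesothelial genes summed to 86.4 to 102 CPM in KO and 107 to 114 CPM in WT, with 7 of 10 below 0. Neutrophil genes summed to 66.6 to 68.1 CPM in KO and 71.4 to 75.9 CPM in WT, with 2 of 3 tested below 0 and Ly6g and Retnlg at 0 in every library. Nearly all of that sum was Csf3r, at 45.4 CPM in KO and 48.7 CPM in WT, and S100a8, at 21.6 CPM in KO and 24.6 CPM in WT. B cell genes summed to 60.2 to 72.3 CPM in KO and 69.6 to 84.9 CPM in WT, of which Cd22 made up 58.9 CPM in KO and 72.2 CPM in WT, and 2 of 7 tested were below 0. The macrophage list summed to 13048 ± 83.0 CPM in KO and 21368 ± 595 CPM in WT (SD, n = 3 each), with 7 of 10 fitted below 0. Most of that sum was the lysozyme gene Lyz2, which fell to 7969.6 CPM in KO against 16349 CPM in WT (edgeR adjusted p = 6.47e-06). The integrin gene Itgam had the opposite order, at 513 CPM in KO and 327 CPM in WT (edgeR adjusted p = 0.344). Outside the T and NK list, DESeq2 called Lyz2, Marco, Fscn1 and Dcn among the markers, all lower in KO. The large peritoneal macrophage list summed to 325 to 366 CPM in KO and 286 to 359.6 CPM in WT, with 2 of 6 tested below 0. The part of any of these cells in the levels of the mitosis genes was not tested.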

How the data were processed

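Each library has 1 column of counts and 1 of FPKM, per the file headers. The deposited counts are whole numbers per gene; the deposited FPKM values were read as the authors' own scaling by gene length and depth. Alignment used HISAT2 2.0, per the submitters' processing notes. How reads were counted, with which annotation and build and whether by strand, is not given in the sources used here. Gene boundaries in the table equal those of the GENCODE M21 annotation of GRCm38 for 39 of the 40 members; those of Nusap1 differ. A further 12 columns of per-sample values, of no sample here, were not used.

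Counts were tested with edgeR 4.0.16 (R 4.3.3): genes kept by filterByExpr (16239), TMM scaling, quasi-likelihood test, genotype only, two-sided, Benjamini-Hochberg adjustment over all tested genes, called at an adjusted p under 0.05. Intervals are 95%. CPM and summed levels come from the same scaling. Alternatives used DESeq2 1.42.0, limma 3.58.1 on log2(FPKM + 1) or log2(FPKM + 0.1) with at least 1 FPKM in at least 3 libraries, other filters, and each library left out.

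All 40 members were named by role, and of each other list the called genes or, with none called, the 2 of highest FPKM and the 2 of smallest p. The members and lists were chosen with earlier results of these data known. Results for 1 of the lists are given in part, and the rest is not reported here. Totals of 68053008 to 79090732 counts give intervals that cover counting error and spread between libraries only.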

Additional observations from a re-analysis of the deposited data

How the results depend on the processing

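None of the 40 members was called by edgeR under any alternative run, and DESeq2 called 1. Genes called over the whole table numbered 11, against 7 with no filter, 457 with DESeq2, and 7 to 35 with 1 library left out (35 without KO library 1, 24 without WT library 2, 7 without WT library 1). The members' median log2 fold change of -0.285 was -0.321 to -0.252 with 1 library left out, and -0.194 with limma on log2(FPKM + 1), which kept only 10 members. Separate groups were found for 13 members, for 5 of those 10 at either pseudocount, and for 13 to 23 with 1 library left out (20 without KO library 3, 23 without WT library 2), where fewer libraries separate more easily. Of all tested genes 17.6% had separate groups in the main fit. That share is not given here for the other settings, so their counts cannot be read as a result about the members. The summed ratio of 0.826 was 0.808 to 0.859. Of 470 values of members and Dclk1 under the alternatives, 460 kept their direction. With 1 library left out the sign turned for Cdc25c without KO library 2 (-0.66 to 0.22 over the libraries left out), Melk without KO library 2 (-0.10), KO library 3 (-0.06) or WT library 3 (-0.06; range -0.10 to 0.43), Cdca8 without KO library 2 (0.01), WT library 1 (0.01) or WT library 2 (0.07; range -0.13 to 0.07), Cenpa without KO library 3 (-0.04 to 0.15), Nuf2 without WT library 2 (-0.13 to 0.01) and Nusap1 without KO library 3 (-0.01 to 0.29); the cause was not tested. The labels do not say whether KO and WT libraries of the same number were paired. Deviations of same-numbered libraries correlated only weakly, at 0.0488, 0.0265 and 0.0173. Each library still correlated best with its own number, a hint from the data only. With the replicate number as a block, 3 genes were called, 0 of them members, 6 members had an unadjusted p under 0.05 against 9.22% of all genes, and the members' median was -0.30. Low counts limit Cdc25c, Pbk and the other members under 1 FPKM, whose standard errors reached 0.747 on the log2 scale.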

Other observations

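Among genes around the G1 decision of macrophages, Cdk4, the G1 kinase, averaged 99.2 ± 1.53 CPM in KO and 90.3 ± 5.1 CPM in WT (SD, n = 3 each; edgeR adjusted p = 0.432), and Csf1r, the receptor for the macrophage growth factor, 965 ± 4.45 CPM in KO and 1021 ± 33.0 CPM in WT (edgeR adjusted p = 0.394).

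Of 17 genes of the DREAM and MuvB complexes and CDK inhibitors, 13 were fitted below 0, at a median of -0.09 on the log2 scale. edgeR and DESeq2 called 0 of them. At an unadjusted p under 0.05, 1 was lower and 1 higher, where 10.4% of all tested genes reached that level and 5.71% were lower. Rbl1, the p107 pocket protein, had 29.0, 29.3 and 29.0 CPM in KO, against 40.9, 31.9 and 32.6 CPM in WT (edgeR adjusted p = 0.404). Rb1, the retinoblastoma protein, had 79.2, 77.0 and 86.6 CPM in KO, against 72.1, 73.0 and 72.7 CPM in WT (edgeR adjusted p = 0.379). The CDK inhibitor Cdkn1a averaged 55.1 ± 1.02 CPM in KO and 58.5 ± 2.46 CPM in WT (SD, n = 3 each), with overlapping groups.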
